A study of Mus musculus with 9 samples.

Results

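Emx1, Emx2, Tbr1, Bcl11b, Dlx1, Dlx2, Lmx1a, Dmrta1 and Gmnc are forebrain genes, several of them genes of the cortical hem, and their RNA was followed here through mouse retinal organoids, a tissue grown to become retina. The 9 genes were taken by name from the gene spots of each array, with every probe kept, which gave 12 of the 56605 gene probes; Tbr1, Bcl11b and Dlx1 each had 2 probes. All 9 were among the 23594 genes tested, and 11 of the 12 probes passed the filter, which asked for a signal well above background on 3 or more of the 9 arrays. The organoids were serum-free floating aggregates of mouse pluripotent cells (ES or iPS), formed by quick reaggregation, from 3 lines: wild type (WT), a knockout of Bhlhb4 (B4KO; the gene is now called Bhlhe23) and a knockout of Isl1 (Isl1KO). Organoids of each line were collected after 10, 16 and 23 days of differentiation (DD10, DD16, DD23), with 1 single-colour array per line and day and 5 organoids pooled per array. Both knockouts had been engineered so that fewer bipolar cells would form. Each line and day was thus 1 sample, and how many clones stand behind a line is not stated in the labels.

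The telencephalon forms from the neural plate beside the eye field, and cultures that make retina can also hold forebrain cells. Emx1 and Emx2 are homeodomain factors that pattern the dorsal telencephalon, the future cortex and hippocampus. Tbr1 is a T-box factor of early-born glutamatergic cortical neurons, and Bcl11b (Ctip2) is a zinc finger factor of deep-layer cortical and striatal neurons. The cortical hem is a strip at the dorsal midline of the telencephalon that secretes Wnt and Bmp proteins, gives rise to Cajal-Retzius neurons and borders the choroid plexus; Lmx1a is a LIM homeodomain factor of the hem and the roof plate. Dmrta1 is a DM-domain factor of dorsal telencephalic progenitors, and Gmnc (Gemc1) switches on the programme of multiciliated cells. Dlx1 and Dlx2 specify GABAergic neurons of the ventral telencephalon and are also known from retinal progenitors and ganglion cells, so their signal alone does not place a cell in the forebrain.

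On each array 59305 gene spots were read, of which 57.3% (WT at DD16) to 67.8% (Isl1KO at DD23) were well above background, and none was saturated. Retinal identity was checked with Rax, a factor of retinal progenitors, which lay between 4.23 and 6.43 on the log2 scale on all 9 arrays, where 0 is the 75th percentile of the array. The targeted genes were only in part informative about the labels. For the Bhlhe23 probe, B4KO minus WT was -0.22, -2.05 and -2.09 at the 3 days. Yet Isl1KO minus WT was 0.25, -1.73 and -2.01. This probe was not well above background in B4KO at DD16 and DD23 or in Isl1KO at DD23, so those differences are limited by background. Of the 2 Isl1 probes, the first read -0.65, -1.88 and -1.58 in Isl1KO minus WT and the other 0.37, -0.76 and -0.26, both well above background throughout. Where the deletions lie relative to these probes is not stated in the labels, so the probes do not settle them, and B4KO and Isl1KO are used below as labelled. The 3 B4KO arrays were on a slide of their own and the other 6 on another, so B4KO and slide cannot be told apart. Arrays of 1 day all lay in the same column of their slides, so day and column cannot be told apart in any comparison of days. RNA came from whole organoids, and in such samples fewer cells of a type and less RNA per cell cannot be told apart.

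Emx2 was highest at DD10 and fell at each later day. Its probe, of which the first 30 of 60 bases are shown to identify what was read, lies on the forward strand at chr19:59539650-59539709 (mm9, per the file headers); exon and UTR boundaries of mm9 were not used here.
Emx2: tttcaagcactgagtttctcttccaagacc
In WT it read 3.91 at DD10, 0.71 at DD16 and -1.09 at DD23 (log2 over the 75th percentile of the array). In B4KO it read 2.59, 0.80 and -0.18. In Isl1KO it read 2.74, 0.75 and -1.05. The 3 DD10 arrays lay above all DD16 arrays, which lay above all DD23 arrays, and WT was the highest array at DD10. Between DD10 and DD16 Emx2 fell 5.02-fold (log2 -2.33, SE 0.40, adjusted p = 0.00694, n = 3 arrays per day; limma with Benjamini-Hochberg adjustment over all 23594 genes, as for every adjusted p below). Between DD16 and DD23 it fell a further 2.88-fold (-1.53, SE 0.40, adjusted p = 0.0255).

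Emx1, its paralog, followed the same order (chr6:85154062-85154121, forward strand). At the 3 days it read 0.43, -3.36 and -5.23 in WT, -0.68, -3.18 and -4.56 in B4KO, and -0.64, -3.15 and -4.78 in Isl1KO. The DD16 arrays lay close together, while at DD10 WT stood above both knockouts; at DD23 only the Isl1KO array was well above background. Emx1 fell 7.64-fold between DD10 and DD16 (-2.93, SE 0.34, adjusted p = 0.0023). Its change between DD16 and DD23 was -1.63 (SE 0.34, adjusted p = 0.0128), a value that rests on 1 of 3 DD23 arrays well above background and was -0.76 after normexp background correction (adjusted p = 0.0325).

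Tbr1 had 2 probes, shown here because only the first could follow the gene past DD10. They lie at chr2:61652093-61652152 and chr2:61642556-61642615 in mm9, both on the forward strand.
Tbr1, first probe: ccactgagaatcgttttgttttctgctcgt
Tbr1, second probe: agatcaaaagtgagccttttctgattgctg
With the first probe Tbr1 read 3.97, 0.87 and -1.07 in WT, 2.68, 0.81 and 0.28 in B4KO, and 2.86, 0.89 and -0.85 in Isl1KO at the 3 days. The days did not overlap, the DD16 arrays were close together, and B4KO stood above the other lines at DD23. Tbr1 fell 4.96-fold between DD10 and DD16 (-2.31, SE 0.46, adjusted p = 0.0113). Between DD16 and DD23 its difference of -1.40 (SE 0.46) did not pass (adjusted p = 0.0523); without the B4KO array of DD23 it was -1.95 (adjusted p = 0.0167), without that of B4KO at DD10 the adjusted p was 0.0373 and without that of WT at DD10 it was 0.0229. The second probe was well above background at DD10 alone, at -3.48 in WT, -4.32 in B4KO and -4.06 in Isl1KO, and lower at DD16 by at least 1.66-fold in WT, by at least 1.21-fold in B4KO and by at least 2.13-fold in Isl1KO. Both probes put WT highest at DD10.

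Bcl11b fell early and then stayed low. Its brighter probe (chr12:109153847-109153906, reverse strand) read 0.65, -2.58 and -2.02 in WT, -0.30, -2.30 and -2.94 in B4KO, and -0.25, -2.57 and -3.36 in Isl1KO. All DD10 arrays lay above all later ones, and DD16 and DD23 overlapped. The fall between DD10 and DD16 was 5.72-fold (-2.52, SE 0.28, adjusted p = 0.00207), whereas the difference between DD16 and DD23 was -0.29 (SE 0.28, adjusted p = 0.452), or -0.68 (adjusted p = 0.0269) without the WT array of DD16. The other probe (chr12:109241744-109241803) read -1.43, -4.09 and -4.53 in WT, -2.53, -3.58 and -4.49 in B4KO, and -2.54, -4.16 and -4.71 in Isl1KO, with WT at DD16 not well above background; it too was highest at DD10.

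Lmx1a, the hem and roof plate factor (chr1:169778804-169778863, forward strand), fell at both steps. It read 2.54, 0.16 and -1.53 in WT, 1.51, 0.41 and -0.64 in B4KO, and 1.71, -0.35 and -1.84 in Isl1KO. The days did not overlap; WT was highest at DD10 and B4KO at DD16 and DD23. Lmx1a fell 3.60-fold between DD10 and DD16 (-1.85, SE 0.34, adjusted p = 0.00921) and 2.66-fold between DD16 and DD23 (-1.41, SE 0.34, adjusted p = 0.0205).

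Gmnc and Dmrta1 were seen at DD10 only. The Gmnc probe lies on the reverse strand at chr16:26957544-26957603.
Gmnc: catatgcacccaagatctctgttttgggat
Gmnc read 1.62 in WT, 0.43 in B4KO and 0.68 in Isl1KO at DD10, and between -6.94 and -4.99 on the 6 later arrays, none of which was well above background. It was at least 47.2-fold lower at DD16 than at DD10 and at least 61.3-fold lower at DD23. Dmrta1 (chr4:89360601-89360660, forward strand) read -0.96, -1.81 and -1.52 in WT, B4KO and Isl1KO at DD10, and between -7.41 and -6.23 later, again not well above background. Against DD10 its signal was lower by at least 9.32-fold on the DD16 arrays, and by at least 12.1-fold on those of DD23. Each bound sets the DD10 mean against the dimmest signal still called well above background on the later arrays. After normexp background correction, which keeps dim signals higher, the fitted differences between DD10 and DD16 were -4.31 for Gmnc and -2.41 for Dmrta1. Both genes entered the tests through their 3 DD10 arrays alone, so the direction of their change was fixed by the filter on dim probes and their tests are no support for it.

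**Figure D1:**
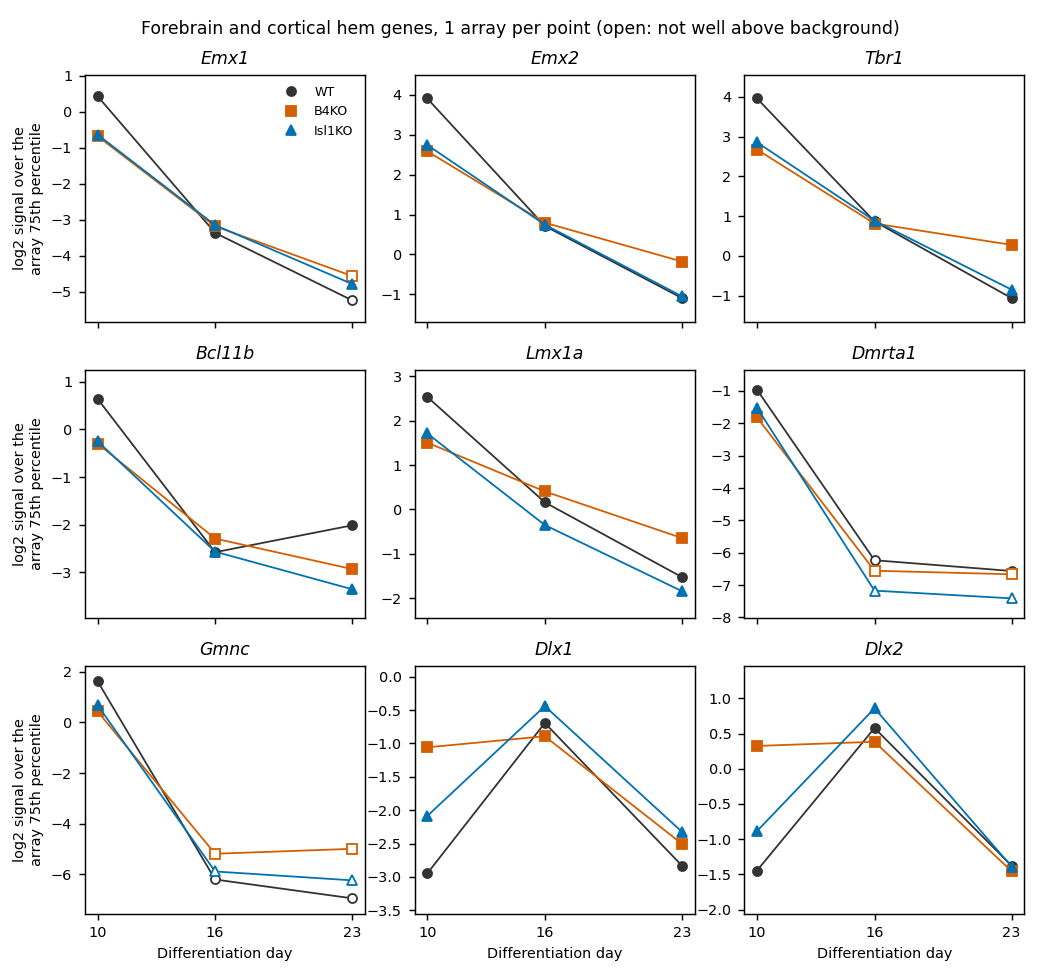
Signal of each gene on each array (y axis, log2 over the array's 75th percentile; x axis, differentiation day), with lines joining the 3 arrays of WT (black circles), B4KO (orange squares) and Isl1KO (blue triangles); open symbols were not well above background, and each panel has its own y scale. In 7 panels the DD10 arrays are highest, with WT on top, while Dlx1 and Dlx2 peak at DD16.

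Dlx1 and Dlx2, neighbours on chromosome 2, took another course. Dlx1 (chr2:71371499-71371558, forward strand) read -2.95, -0.69 and -2.83 in WT, -1.06, -0.89 and -2.50 in B4KO, and -2.09, -0.44 and -2.32 in Isl1KO. Dlx2 (chr2:71381612-71381671, reverse strand) read -1.45, 0.58 and -1.38 in WT, 0.32, 0.38 and -1.46 in B4KO, and -0.89, 0.86 and -1.39 in Isl1KO. Both were highest at DD16 in every line, but in B4KO the step from DD10 to DD16 was only 0.17 for Dlx1 and 0.06 for Dlx2, against 2.25 and 2.02 in WT and 1.65 and 1.74 in Isl1KO. Dlx1 rose 2.56-fold between DD10 and DD16 (1.35, SE 0.38, adjusted p = 0.0335) and Dlx2 2.42-fold (1.28, SE 0.40, adjusted p = 0.0459). Both then fell by DD23, Dlx1 3.67-fold (-1.88, SE 0.38, adjusted p = 0.0111) and Dlx2 4.04-fold (-2.01, SE 0.40, adjusted p = 0.0102).

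The rises of Dlx1 and Dlx2 depended on the arrays used. They did not pass when the WT array of DD10, DD16 or DD23, the B4KO array of DD23, or the Isl1KO array of any day was left out, with adjusted p from 0.0501 to 0.123 for Dlx1 and from 0.0604 to 0.157 for Dlx2. Within the slide of WT and Isl1KO they were 1.95 (adjusted p = 0.0112) and 1.88 (adjusted p = 0.011).

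The second Dlx1 probe and the dimmer Bcl11b probe are shown because each reads sequence ahead of the gene's RefSeq start. The whole Dlx1 probe lies from 91 to 32 bases before the RefSeq start of Dlx1, and the whole Bcl11b probe from 179 to 120 bases before that of Bcl11b (matched by sequence, RefSeq, GRCm38.p6).
Dlx1, second probe: cgcgactccgcgatccagagaccgcggccg
Bcl11b, second probe: cctaccagaccccgaaagaaaagtgtcaga
The Dlx1 probe was well above background on 0 of 9 arrays, with values between -7.61 and -6.09, and was left out of the tests. The Bcl11b probe was well above background on 8 of 9. The array also carried probes for transcripts opposite to 2 members. Dlx1as was well above background on no array, and Emx2os on 3, at -4.46 in B4KO at DD23, -4.75 in Isl1KO at DD10 and -5.29 in Isl1KO at DD23.

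Set against all genes, 9 of 9 members passed between DD10 and DD16, where 40.7% of genes did. Of these 7 fell, against 18.8% of genes, and 2 rose, against 21.9%. The fall of Gmnc and Dmrta1 was fixed by the filter; of the other 7 members 5 fell and 2 rose, with a median difference of -2.31 against 0.03 for all genes. Between DD16 and DD23, where 41.2% of genes passed and 21.9% fell, 5 of 9 members fell and none rose, where 19.3% of genes did; Emx1, Emx2, Lmx1a, Dlx1 and Dlx2 passed, and Tbr1, Bcl11b, Dmrta1 and Gmnc did not. Leaving out 1 array moved this count to between 2 and 6: it was 2 without Isl1KO at DD16, and 3 without WT at DD23, B4KO at DD16 or Isl1KO at DD23, with adjusted p of 0.0563 for Emx1, up to 0.0966 for Emx2 and up to 0.081 for Lmx1a. Without WT at DD16, Emx2 (0.063) and Lmx1a (0.0639) did not pass and Bcl11b did. Over the whole span from DD10 to DD23, 7 of 9 fell, against 29.2% of genes lower, 31.6% higher and 60.7% changed. Without Gmnc and Dmrta1, whose fall the filter fixed, 5 of 7 fell. The log2 differences were -4.56 for Emx1 (-3.01 with normexp, and 1 of 3 DD23 arrays well above background), -3.85 for Emx2, -3.71 for Tbr1, -2.81 for Bcl11b and -3.26 for Lmx1a, with Dmrta1 and Gmnc as bounds above. Dlx1 (-0.52, adjusted p = 0.274) and Dlx2 (-0.74, adjusted p = 0.154) did not pass over that span. All 3 DD16 arrays were below all 3 DD10 arrays for the same 7 genes that fell, against 22.2% of all genes, and above them for Dlx1 and Dlx2 (21.9%). All DD23 arrays were below all DD16 arrays for 6 members, the 5 that passed and Tbr1 (23.9% of genes), and below all DD10 arrays for 7 (28.1%), while none was above (26.3%). Gmnc and Dmrta1, whose direction the filter fixed, are among the 7 in both comparisons with DD10. Without them 5 of 7 members lay wholly below DD10 in each.

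**Figure D2:**
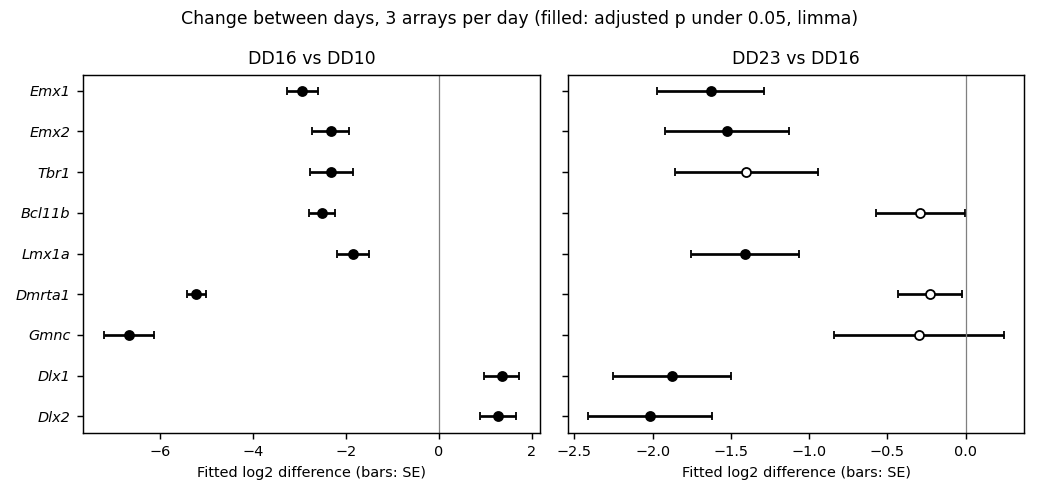
Fitted log2 difference of each gene between days (x axis, points; bars are standard errors of the limma fit, 3 arrays per day), with filled points at adjusted p under 0.05. At DD16 every point is filled and only Dlx1 and Dlx2 lie to the right of 0, while at DD23 the 5 filled points all lie to the left; the Dmrta1 and Gmnc points rest on signals not well above background at DD16 and DD23.

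Genes known from the same tissues were followed as lists. For comparison with each list, 18.8% of all genes fell and 21.9% rose between DD10 and DD16. Between DD16 and DD23, 21.9% fell and 19.3% rose. Of 21 tested non-member genes of the cortical hem and roof plate, 21 fell between DD10 and DD16, against 18.8% of all genes. Their median difference was -2.29. Wnt2b, on this list, was well above background on its DD10 arrays only, so the filter on dim probes fixed the direction of its change. Not all passed under every alternative: Bmp7 passed in 9 of 16, and Bmp6 in 12 of the 15 that tested it. Rspo1, a secreted Wnt activator, fell (-4.80, SE 0.32, adjusted p = 0.000468), as did Wnt3a, a Wnt ligand of the hem (-4.78, SE 0.26, adjusted p = 0.0003). Rspo1 read 5.84, 4.76 and 5.05 in WT, B4KO and Isl1KO at DD10 and between 0.24 and 0.61 at DD16. From DD16 to DD23, 10 of 21 fell and 1, the Wnt receptor Fzd10, rose (1.73, SE 0.18, adjusted p = 0.0017); the number that fell was 5 or 6 when WT at DD16, WT at DD23, B4KO at DD16, Isl1KO at DD16 or Isl1KO at DD23 was left out.

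Of 10 Cajal-Retzius cell genes, 6 fell between DD10 and DD16 and none rose, with a median of -0.72. Ebf2 fell (-2.60, SE 0.37, adjusted p = 0.00406), as did Trp73, a p53 family factor of these neurons (-1.95, SE 0.52, adjusted p = 0.0296), while Reln, the secreted protein that defines the cells, read 3.26, 2.47 and 2.64 at DD10 and between 3.01 and 3.33 at DD16. The count of falls depended on the arrays used: it was 3 without WT at DD10, 2 without B4KO at DD16, 1 without WT at DD16, Isl1KO at DD10 or Isl1KO at DD16, and 3 within the slide of WT and Isl1KO.

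Among 20 further telencephalic and cortical genes, 9 fell and 3 rose between DD10 and DD16 (median -0.38), and 13 fell and 1 rose between DD16 and DD23 (median -0.78); the 13 became 6 to 8 without WT at DD16, WT at DD23, Isl1KO at DD16 or Isl1KO at DD23. Dmrt3 (-2.68, SE 0.44, adjusted p = 0.00615) and Dmrta2 (-2.67, SE 0.37, adjusted p = 0.00362) fell, both DM-domain factors like Dmrta1. Neurog2, a proneural factor also of retinal progenitors, rose by 2.32 (SE 0.29, adjusted p = 0.00282).

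Other lists were mixed. Over all genes 21.9% rose and 18.8% fell between DD10 and DD16, and the ventral telencephalon counts lay near these shares. Of 14 tested ventral telencephalon genes, the list of the relatives of Dlx1 and Dlx2, 3 rose and 2 fell between DD10 and DD16: Gad2, an enzyme of GABA synthesis that retinal neurons also make, rose (2.37, SE 0.34, adjusted p = 0.00438), while Gsx2, a homeodomain factor of ventral progenitors, fell (-1.57, SE 0.27, adjusted p = 0.00682). Of 14 multiciliated cell genes, the list of genes that act with Gmnc, 5 rose and 5 fell: Ccno, of the same programme, fell by 2.62 (SE 0.35, adjusted p = 0.00354) and Rsph1, of the axoneme, rose by 2.70 (SE 0.18, adjusted p = 0.000498). Of 12 choroid plexus genes, 4 rose and 2 fell. Of neural retina markers 7 of 12 rose and none fell (median 0.93). Within the slide of WT and Isl1KO 4 rose, and 1 fell with normexp or the deposited values. Of 11 pigment epithelium genes 8 fell (median -1.73).

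At DD10, the 7 genes that later fell were higher in WT than in both knockouts, and Dlx1 and Dlx2 were lower. These are differences between single arrays, with no replicate and no test of their own, and both knockouts were set against the same WT array. B4KO minus WT and Isl1KO minus WT were -1.11 and -1.07 for Emx1, -1.32 and -1.17 for Emx2, -1.29 and -1.11 for Tbr1, -0.94 and -0.89 for Bcl11b, -1.03 and -0.82 for Lmx1a, -0.85 and -0.56 for Dmrta1, and -1.19 and -0.94 for Gmnc. For Dlx1 they were 1.89 and 0.86, and for Dlx2 1.77 and 0.56. Thus 7 of 9 members were at least 1.5-fold lower in B4KO, as were 22.6% of all genes, and 6 of 9 in Isl1KO, as were 8.19%; 6 were so in both, as were 5.17%. At least 1.5-fold higher were 2 of 9 in B4KO (4.94% of genes) and 1 of 9 in Isl1KO (4.53%); Dlx1 was so in both (1.95%).

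The DD10 difference was tested as a departure, that is, whether knockout minus WT at DD10 differed from its mean over DD16 and DD23. No member and no other gene passed in either knockout (0 of 23594, limma). At an unadjusted p under 0.05, 6 of 9 members departed downward in B4KO, where 5.28% of genes did, and 3 of 9 in Isl1KO, where 4.2% did. Gmnc and Dmrta1 are among these, although their DD16 and DD23 signals were not well above background; without them the counts were 4 of 7 and 2 of 7. The lowest adjusted p of a member was 0.209, for Dlx2 in B4KO, which departed by 1.91 (SE 0.24). For Emx1 in B4KO the departure was -1.54 (SE 0.26, unadjusted p = 0.00383, adjusted p = 0.27). With 2 residual degrees of freedom and no call among all genes, the absence of a call says little about the members.

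**Figure D3:**
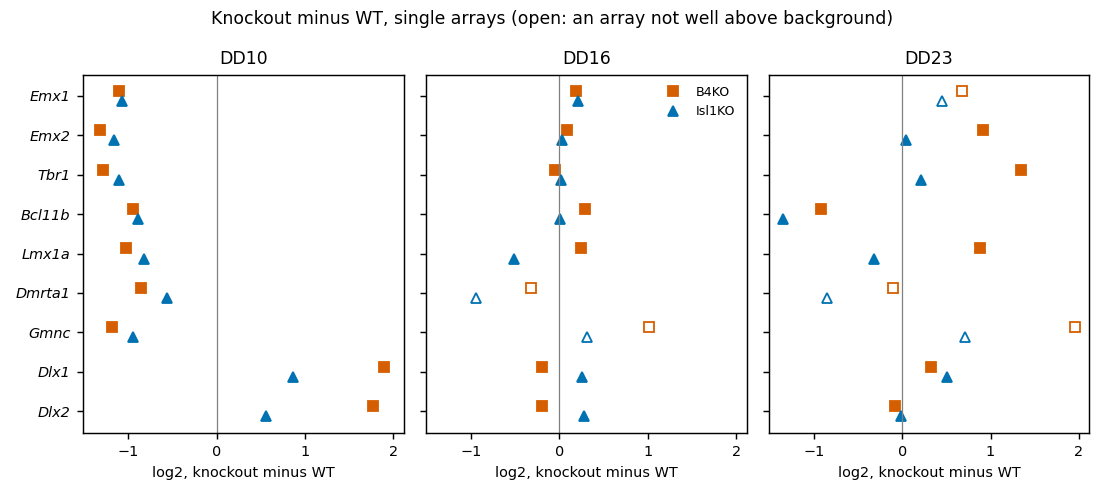
Knockout minus WT on single arrays (x axis, log2 difference) for each gene at DD10, DD16 and DD23, B4KO as orange squares and Isl1KO as blue triangles; open symbols have an array not well above background. At DD10, 7 genes lie left of 0 and Dlx1 and Dlx2 right of 0 in both knockouts; at DD16 all filled symbols lie near 0; at DD23 the B4KO symbols of Emx2, Tbr1 and Lmx1a lie to the right.

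Marker lists differed between WT and the knockouts at DD10 as well. All 21 tested hem and roof plate genes were lower in both knockouts than in WT, with medians of -0.88 in B4KO and -0.68 in Isl1KO, 13 and 12 of them at least 1.5-fold; after normexp background correction 20 were lower in B4KO, and with the mean of each gene's probes 20 in Isl1KO. All 10 Cajal-Retzius genes were lower in both (medians -0.93 and -0.86), 9 of 10 in each knockout at least 1.5-fold. Other lists fell in part, with dim signals counted. Over all genes 22.6% in B4KO and 8.19% in Isl1KO were at least 1.5-fold lower, and 4.94% and 4.53% higher. Of 14 ventral telencephalon genes 7 and 5 were at least 1.5-fold lower, and 3 and 0 higher (medians -0.58 and -0.42). That list holds the relatives of Dlx1 and Dlx2, which were themselves higher in both knockouts. Of 11 hypothalamus and diencephalon genes 5 in B4KO and 7 in Isl1KO were at least 1.5-fold lower, and 2 and 1 higher (medians -0.31 and -0.75). Of 20 telencephalon and cortex genes 7 and 10 were lower, and 1 and 1 higher (medians -0.43 and -0.69). Of 14 ganglion cell genes 4 and 6 were lower, and 5 and 2 higher (medians 0.19 and -0.44). Of neural retina markers 7 of 12 in B4KO and 5 of 12 in Isl1KO were at least 1.5-fold higher (medians 1.13 and 0.56), and their summed signal, with the array's 75th percentile as unit, was 115.3 in WT, 212.5 in B4KO and 155.8 in Isl1KO; Rax was well above background on all 9 arrays, and Nrl, a rod factor, on no DD10 array. The summed signal of the members was 43.5, 20.1 and 21.4 in the same order, that of the hem list 226.0, 130.5 and 146.4, and that of the Cajal-Retzius list 43.1, 25.9 and 25.8. The part of the retinal and hem lists in the members' DD10 differences was not tested.

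**Figure D4:**
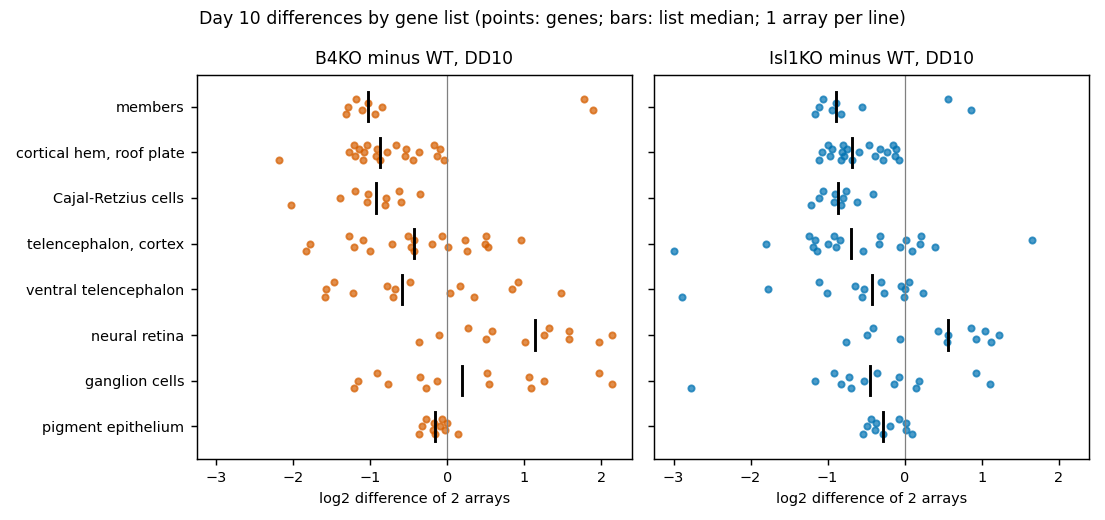
Knockout minus WT at DD10 (x axis, log2 difference of 2 arrays) for the genes of each list (points) with the list's median (black bar), B4KO on the left and Isl1KO on the right. The medians of the members, the hem and the Cajal-Retzius lists lie left of 0 in both knockouts and that of the neural retina list lies right of 0.

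At DD16 the lines differed little. No member that was well above background on the arrays compared differed from WT by 1.5-fold in either knockout; the lowest and highest differences were -0.51 for Lmx1a in Isl1KO and 0.29 for Bcl11b in B4KO. Counting dim signals, 0 of 9 were lower in B4KO (16.9% of genes), 1 was higher (Gmnc; 3.14%), and in Isl1KO 1 was lower (Dmrta1; 3.7%) and 0 higher (4.7%). The summed signal of the members was 6.98, 7.01 and 7.16 in WT, B4KO and Isl1KO. At DD23, 3 members well above background on both arrays were at least 1.5-fold higher in B4KO than in WT, namely Tbr1 (1.34), Emx2 (0.92) and Lmx1a (0.88), and with dim signals counted 5 of 9 were, against 4.53% of all genes; Bcl11b was lower (-0.92; 21.4% of genes lower). In Isl1KO Bcl11b was lower (-1.35), 1 of 2 members so when dim Dmrta1 is counted (6.2% of genes). The single member that was higher in Isl1KO, Gmnc (1.95% of genes), was dim. Both Bcl11b values are of its brighter probe. The other Bcl11b probe, well above background on all DD23 arrays, differed from WT by only 0.05 in B4KO and -0.17 in Isl1KO. The departure test at DD23 called no member; for Tbr1 in B4KO it was 2.01 (SE 0.62, unadjusted p = 0.0322, adjusted p = 0.814). Choroid plexus genes, markers of a tissue next to the hem, were at least 1.5-fold higher in B4KO at DD23 in 7 of 12 (median 0.80), and the hem list in 10 of 21 (median 0.32); their part in the Emx2, Tbr1 and Lmx1a values was not tested.

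Averaged over the 3 days, no member passed between lines by limma. Differences of opposite sign at single days cancel in this average and also enter the error of the fit. For Tbr1, B4KO minus WT was -1.29 at DD10 and 1.34 at DD23, and the fitted value was 0.00031. In B4KO against WT 0 of 9 passed, although 22% of genes did (18% lower, 4% higher), and 0 of 9 at an unadjusted p under 0.05; the lowest was Dmrta1 (-0.43, SE 0.20, unadjusted p = 0.0813, adjusted p = 0.188). Without the WT array of DD16, Bcl11b passed (-0.92, adjusted p = 0.0139). In Isl1KO against WT 0 of 9 passed, where 0.00424% of genes did; 2 had an unadjusted p under 0.05, Dmrta1 (-0.78, SE 0.20, adjusted p = 0.474, lower in Isl1KO on 3 of 3 days, 2 of them not well above background) and Bcl11b (-0.74, SE 0.28, adjusted p = 0.599, lower on 2 of 3 days). In Isl1KO against B4KO 0 of 9 passed, where 21.9% of genes did (18.1% higher, 3.8% lower); without the B4KO array of DD10, Lmx1a (-1.05, adjusted p = 0.0203) and Dmrta1 (-0.62, adjusted p = 0.0284) did. For Emx2, for instance, B4KO minus WT was -0.11 (SE 0.40) and Isl1KO minus WT -0.36 (SE 0.40).

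The genes whose course over the 9 arrays was most like each member's were found among 2900 genes that varied by at least 2 log2 units, by Pearson's r; the arrays share lines and days, so r is given as a description. Nearest to Emx2 were Kcnj5 (0.995), Cenpw (0.992) and Dmrt3 (0.992), and nearest to Tbr1 were Trp73 (0.994), Dmrt3 (0.993) and Kcnj5 (0.990). Lmx1a was nearest to Fgfr1 (0.993), Cachd1 and Kcnj5, Emx1 to Pidd1 (0.993), Pcdh20 and Ext1, and Bcl11b to Postn (0.989), Cdc42ep5 and Sema3c. Dmrta1 was nearest to Samd5 (0.994), Aass and Gas1, and Gmnc to Bmf (0.986), Epha4 and Gas1. Near Dlx1 were Itga4 (0.951) and Fgf3 (0.939), and Dlx2 was nearest to Itga4 (0.963), Fgf3 and Gadd45a. Kcnj5 thus stood near 3 of the members that fell, and Dlx1 and Dlx2 shared Itga4 and Fgf3. Gas1 stood near Dmrta1 and Gmnc. Their DD16 and DD23 signals were not well above background, so their r rests on DD10 against background.

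Promoters were read for the members because 7 of them fell together. Windows of 250 bases ahead of each RefSeq start (GRCm38.p6; all 9 members matched, Gmnc with 2 starts) were searched on both strands for TAATTA, a core that homeodomain factors such as Emx2, Dlx2 and Lmx1a bind, for CTTTGAT and CTTTGTT, cores bound by the Tcf and Lef factors of Wnt signalling, and for CAGATG, an E-box of proneural factors; CTTTGAT and CTTTGTT cannot overlap as the same site. Of 32851 promoter windows of the same length, 4.84% held TAATTA, 3.21% CTTTGAT, 5.03% CTTTGTT and 14.4% CAGATG. Only the windows of Tbr1 and Gmnc held a match. Tbr1 (chr2:61804203-61804452, forward strand) held TAATTA at 2 places, the first starting 33 bases before the start, and the upstream window of Gmnc (chr16:26991653-26991902, reverse strand) held CTTTGAT once; the other Gmnc window held CAGATG once. Emx2 (chr19:59458440-59458689, forward strand) is shown beside them as a member with none. Capitals mark the matches, 5′ to 3′ along the gene.
Tbr1 promoter: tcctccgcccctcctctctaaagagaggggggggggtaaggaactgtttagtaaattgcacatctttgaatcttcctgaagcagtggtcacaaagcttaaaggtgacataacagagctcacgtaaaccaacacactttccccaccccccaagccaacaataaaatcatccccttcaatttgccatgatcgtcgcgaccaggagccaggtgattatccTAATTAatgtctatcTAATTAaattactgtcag
Gmnc promoter: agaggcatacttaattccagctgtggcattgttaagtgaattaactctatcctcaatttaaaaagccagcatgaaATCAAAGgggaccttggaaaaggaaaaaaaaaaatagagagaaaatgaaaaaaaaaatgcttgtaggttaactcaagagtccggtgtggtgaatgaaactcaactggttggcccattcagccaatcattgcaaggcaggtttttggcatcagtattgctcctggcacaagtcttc
Emx2 promoter: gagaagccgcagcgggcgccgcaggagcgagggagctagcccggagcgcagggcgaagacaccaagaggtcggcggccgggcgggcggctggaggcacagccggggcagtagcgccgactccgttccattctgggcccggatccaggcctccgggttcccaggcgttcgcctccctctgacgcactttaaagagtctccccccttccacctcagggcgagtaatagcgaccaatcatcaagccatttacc
A match is a run of letters, not a bound site, and the members that fell together did not share any of these motifs in these windows.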

How the data were processed

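Per the submitters' processing notes, spots were quantified by Agilent Feature Extraction (version 12.0.3.1). Its processed intensity, as deposited, is corrected for background and spatial trend, with no scaling between arrays, per the file headers; flags for outlying spots and for spots well above background were deposited beside it. The deposited table of processed values holds, for bright probes, the intensity as a ratio to a constant of each array, with its 75th percentile at 1; it was used as an alternative. Probe coordinates are mm9, per the file headers.

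Spots of a probe were averaged, 102 probes with outlier flags were left out, and 32994 probes were named through RefSeq (GRCm38.p6, names only) while 23611 kept the file's name. Intensities were divided by their array's 75th percentile and log2-transformed. Each gene was represented by its brightest probe among those well above background on at least 3 of 9 arrays (23594 genes). Line and day were additive terms in limma 3.58.1 (R 4.3.3, data.table version 1.17.8; lmFit and eBayes; 4 residual and 2.01 prior degrees of freedom), with Benjamini-Hochberg adjustment over all genes at 0.05. Lacking replicates, the fit takes its error from how far arrays depart from additivity. A second model added a term for each knockout at DD10 or DD23 (2 residual degrees of freedom). Scripts were tested on simulated data. The test covers the labelled samples; nothing says that cultures were repeated, so p-values measure only the spread between these arrays.

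Named genes were all members with every probe, up to 2 top rises and 2 top falls per list, its defining markers, and the 3 genes most like each member. There were 13 lists: telencephalon and cortex, Cajal-Retzius cells, ventral telencephalon, cortical hem and roof plate, choroid plexus, multiciliated cells, hypothalamus and diencephalon, midbrain and hindbrain, neural retina, retinal ganglion cells, amacrine and horizontal cells, retinal pigment epithelium and ciliary margin. The members and the lists were chosen with earlier results of these data known, some genes that the rule names are not reported here, and the 1.5-fold limit for single arrays was chosen after seeing the data. Alternatives were quantile normalization, normexp with an offset of 50, other filters on dim probes, the mean of a gene's probes, the deposited table, each array left out, and the 6 arrays of the WT and Isl1KO slide alone. With 9 arrays, their number sets the precision.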

Additional observations from a re-analysis of the deposited data

Results flagged for a closer look

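Bcl11b moved in opposite directions between DD16 and DD23 in WT and in the knockouts. With its brighter probe it was 0.57 higher at DD23 in WT, while the difference was -0.64 in B4KO and -0.79 in Isl1KO (log2, DD23 minus DD16, 1 array each). The difference between the lines was not tested. The other Bcl11b probe differed by -0.44 in WT, -0.90 in B4KO and -0.55 in Isl1KO, so it did not show a rise in WT.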

How the results depend on the processing

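Across the alternatives no member changed direction where it passed. The falls of Emx1, Emx2, Tbr1, Bcl11b and Lmx1a from DD10 to DD16 and to DD23 passed under each alternative in which the gene was tested. Those of Gmnc and Dmrta1 did too, but the filter on dim probes had fixed their direction, so they are no support. When only probes well above background on all 9 arrays were kept, Emx1, Dmrta1 and Gmnc were not tested and the count between DD10 and DD23 was 4 of 6. Leaving out 1 array gave between 7 and 9 members changed between DD10 and DD16, between 2 and 6 between DD16 and DD23, 7 between DD10 and DD23, between 0 and 1 for B4KO against WT, between 0 and 2 for Isl1KO against B4KO, and 0 for Isl1KO against WT and for both departures. Without a filter on dim probes, Dlx1 (adjusted p = 0.0699) and Dlx2 (adjusted p = 0.0914) did not pass between DD10 and DD16, nor Emx2 between DD16 and DD23 (adjusted p = 0.0538), and Cajal-Retzius falls at DD16 were 2 and hem falls at DD23 6. Tbr1 between DD16 and DD23 passed with normexp (adjusted p = 0.0285), with the filter on all 9 arrays (0.0297) and within the WT and Isl1KO slide (0.0329). The causes were not tested. Over all genes, the count between DD10 and DD16 was 9606, against 4899 within that slide, 5895 without Isl1KO at DD10 and 5915 without Isl1KO at DD16. For Isl1KO against WT it was 1, against 11 with normexp and 4547 without a filter on dim probes; for B4KO against WT it was 5194, against 3417 without WT at DD10 and 3417 without WT at DD23; for Isl1KO against B4KO it was 5157, against 3288 without Isl1KO at DD16. With normexp the departures at DD10 numbered 2 in B4KO and 11 in Isl1KO, none of them a member. The median of all genes moved by over 0.1 only without that filter, to 0.15 between DD10 and DD16, -0.095 between DD16 and DD23 and -0.11 for B4KO against WT. No paired analysis was possible because each line and day had 1 array and so no replicate numbers to pair; line was a term in every day comparison. Dim signals (Gmnc and Dmrta1 after DD10, Emx1 at DD23) are limited by background.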

Other observations

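Many genes of other brain regions were too dim to be tested. Over all genes 21.9% rose and 18.8% fell between DD10 and DD16. Of 13 midbrain and hindbrain genes 6 were tested, and between DD10 and DD16 Ptf1a, which is also an amacrine and horizontal cell factor, was at least 54.6-fold higher and Hoxb2 at least 3.70-fold higher. Of 17 hypothalamus and diencephalon genes 11 were tested, and 1 rose and 3 fell at DD16, among them Irx3 (-1.14, SE 0.17, adjusted p = 0.00433, limma). Ganglion cell genes, which share Eomes with the cortical list, rose in 6 of 14, among them Isl2 (4.03), and fell in 2 between DD10 and DD16, with Eomes among the falls (-1.84, SE 0.33, adjusted p = 0.00855). Within the slide of WT and Isl1KO 2 rose and 1 fell. Amacrine and horizontal cell genes rose in 7 of 15 and fell in 1, Lhx1 (-1.31), which the Cajal-Retzius list also holds. Of 10 ciliary margin genes 6 fell and 1 rose. Among the falls, Msx1 (-1.89), Zic1 and Wnt2b (at least 3.01-fold lower) are also in the hem list. The direction for Wnt2b was fixed by the filter on dim probes.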
